A study of Danio rerio with 36 samples.

Results

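The constitutive proteasome genes were taken as every gene whose symbol follows the naming of the standard 26S subunits (psma1 to psma8, psmb1 to psmb7, psmc1 to psmc6 and psmd1 to psmd14, with or without a paralogue letter). The rule found 37 of the 30221 genes in the deposited table, and 37 of 37 passed the expression filter and were tested. They comprise 8 alpha-ring genes, 7 beta-ring genes, 7 ATPase genes, 12 non-ATPase subunit genes of the regulatory particle and 3 genes, psmd5, psmd9 and psmd10, that carry subunit names although their products are assembly chaperones. No row named psma7 or psmd2 was among them, and both are not analysed here.

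The libraries are bulk RNA-seq of whole zebrafish larvae labelled wild type. Embryos entered regular medium, 130 mM glucose or 222 mM glucose at 6 h after fertilisation, and after 14 days of exposure the caudal fin was cut off just past the spinal cord, and larvae then returned to their own medium. In each medium, larvae were left uncut or collected 3, 24 or 48 h after amputation, which gives 12 groups of 3 libraries, and all 36 libraries entered 1 fit. The higher dose is written once in nM in the design text and in mM in the sample labels. Each medium has 1 uncut group of unstated age, so amputation and time cannot be told apart in any comparison with it, and no osmotic control was analysed. Nothing states that the 3 libraries of a group came from separate clutches or pools, so p-values measure the spread between these libraries, which may be technical.

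The proteasome is the protease that degrades ubiquitin-tagged proteins in the cytosol and nucleus. Its 20S core is a barrel of outer alpha rings, which gate entry, and inner beta rings, in which beta5 (psmb5), beta1 (psmb6) and beta2 (psmb7) carry the chymotrypsin-like, caspase-like and trypsin-like active sites. The 19S regulatory particle recognises and deubiquitinates the substrate and unfolds it with a ring of ATPases (psmc genes). In mammals the subunit genes are known to be raised together by the factor NRF1, and immune signals replace the active beta subunits by the inducible PSMB8, PSMB9 and PSMB10.

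Total counts ran from 47904694 to 67514889 per library, and the 37 genes held between 0.147% and 0.300% of them. There were 4 libraries that stood apart, each correlating with its 2 fellow replicates less well, by over 0.02, than these did with each other: regular medium uncut replicate 3, 222 mM uncut replicate 3, regular medium 3 h replicate 1 and 130 mM 24 h replicate 1. No pair of replicates agreed within sampling noise. Levels are given as TMM-scaled CPM, a library-size-corrected count, or as FPKM, which also corrects for transcript length, where genes are compared with each other. A gene changed when edgeR's quasi-likelihood test gave a Benjamini-Hochberg adjusted p under 0.05 over the 20120 genes tested. Where a log2 fold change is followed by ±, the value is its standard error, and some changes are printed without it.

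By length-corrected level the beta ring had the highest median and the chaperones the lowest. The median gene mean over the 36 libraries was 43.5 FPKM in the beta ring, 34.7 FPKM among the ATPases, 30.1 FPKM in the alpha ring, 24.1 FPKM among the non-ATPase subunits and 5.14 FPKM among the assembly chaperones. The highest mean was that of psma8 at 76.1 FPKM, an alpha subunit whose mammalian namesake is known from the testis, and the next was psmb4, a non-catalytic beta subunit, at 70.2 FPKM. The lowest was psmd10, the chaperone gankyrin in mammals, at 4.29 FPKM.

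The genes lie on 18 chromosomes (GRCz11, positions as deposited), and psmc1b and psma6b, both on chromosome 20, are 143429 bases apart. Their levels tended to move together. Across the 36 libraries, the log2 level of a gene correlated with the mean of the other 36 at a median Pearson's r of 0.92, with 23 genes above 0.9 and 31 above 0.8. All points share their libraries, so these values describe the data and carry no test. The most typical gene was the ATPase psmc5 (r = 0.98), and the least typical was the chaperone psmd9 (r = 0.29), followed by the alpha subunit psma2 (r = 0.73) and the chaperone psmd5 (r = 0.76). The ratio of the highest to the lowest group mean ran from 1.58 for psmd9 to 3.02 for psmb5, with a median of 2.11.

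**Figure D1:**
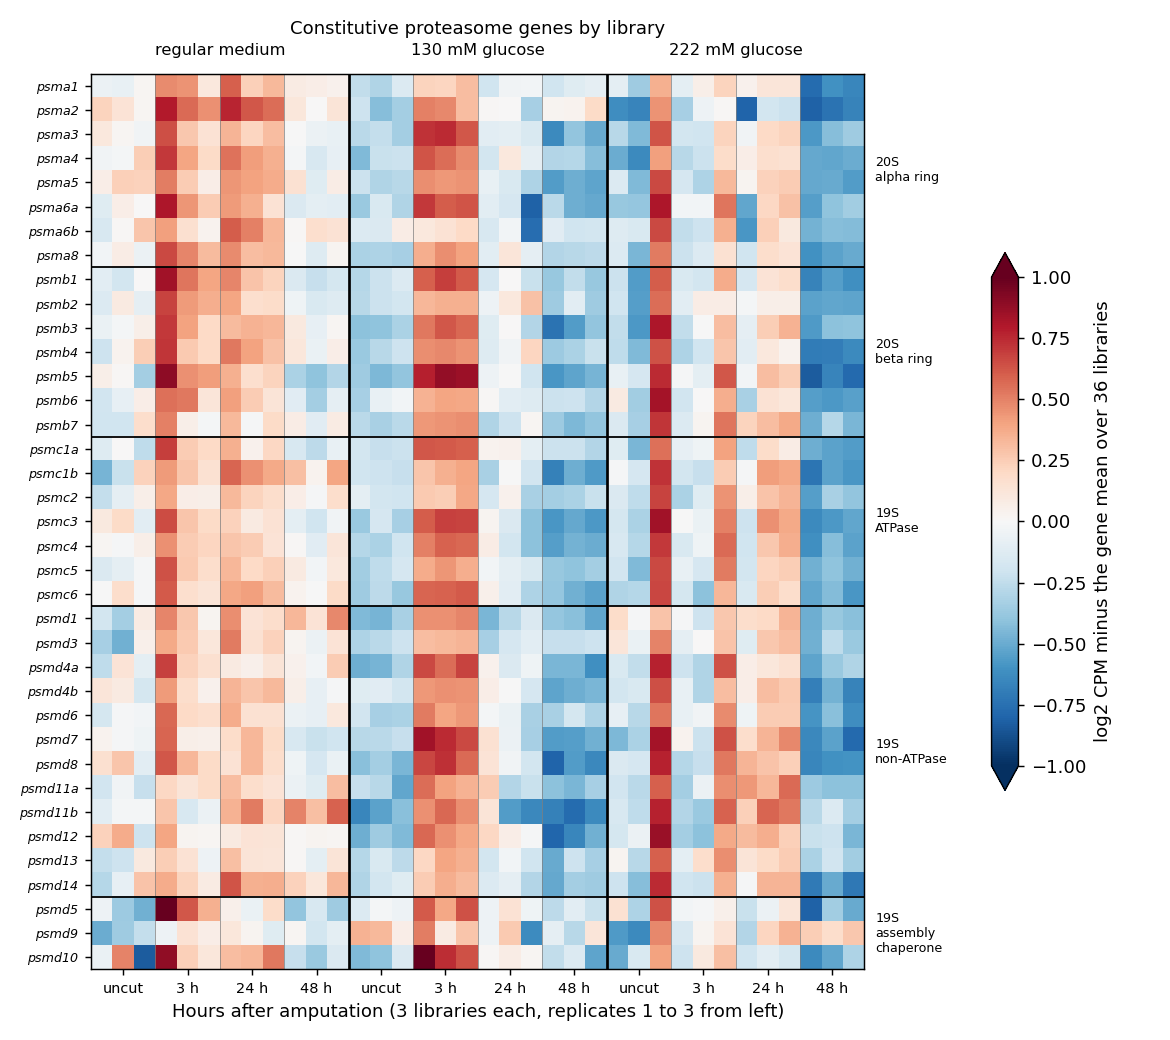
Each row is 1 of the 37 genes, grouped by role, and each column 1 of the 36 libraries; colour is log2 CPM minus the mean of that gene over all libraries, and colours end at 1 log2 unit in either direction. The 3 libraries of 130 mM glucose at 3 h are red in nearly all rows, the 48 h libraries of both glucose media are blue in most rows, and replicate 3 of 222 mM uncut is red beside 2 paler blue replicates.

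Most members peaked and bottomed in the same places. The group mean was highest at 3 h in 130 mM glucose for 27 genes, at 24 h in regular medium for 5, at 3 h in regular medium for 4 and at 24 h in 222 mM glucose for 1. It was lowest at 48 h in 222 mM glucose for 27 genes, at 48 h in 130 mM glucose for 9, and in uncut larvae in regular medium for psmd9 alone. Summed over the 37 genes, the level was 2936 ± 21.96 CPM (SD, n = 3) at 3 h in 130 mM glucose, 2671 ± 394 CPM at 3 h and 2588 ± 167 CPM at 24 h in regular medium. It was 1617 ± 30.0 CPM at 48 h in 130 mM glucose and 1484 ± 58.7 CPM at 48 h in 222 mM glucose. The other groups lay between, at 2350 ± 251 CPM (222 mM, 24 h), 2289 ± 835 CPM (222 mM, uncut), 2185 ± 469 CPM (222 mM, 3 h), 2138 ± 124 CPM (regular, 48 h), 2050 ± 85.9 CPM (regular, uncut), 1940 ± 79.2 CPM (130 mM, 24 h) and 1735 ± 31.8 CPM (130 mM, uncut). Neighbours in this order overlapped from the highest down to 130 mM at 24 h, and the last 4 groups did not overlap each other. In bulk RNA of whole larvae, fewer cells of a type and less RNA per cell cannot be told apart.

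**Figure D2:**
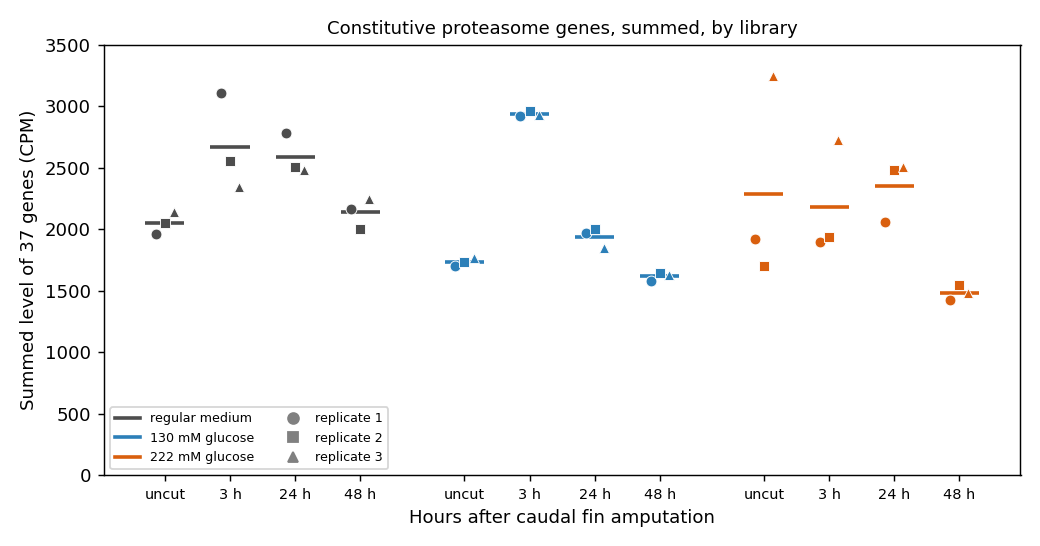
Summed CPM of the 37 genes in each library (circle, square and triangle for replicates 1, 2 and 3) with the group mean as a bar, by medium and hours after amputation. The libraries of 130 mM glucose at 3 h lie between 2921 and 2961 CPM, whereas 222 mM uncut runs from 1700 to 3244 CPM with replicate 3 far above the others.

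The clearest change was 3 h after amputation in 130 mM glucose, where the RNA level of almost all members rose. Against uncut larvae in the same glucose, 35 of 37 genes rose and 0 fell, where 38.2% of all tested genes changed and 20.9% rose. The median gene rose 1.69-fold (log2 0.76, against 0.01 over all tested genes). The rise took in 7 of 7 beta-ring genes, 7 of 7 ATPases, 12 of 12 non-ATPase subunits, 7 of 8 alpha-ring genes and 2 of 3 chaperones. The libraries of the 2 groups did not overlap for 36 genes, all with the 3 h libraries higher, as they were for 31.0% of all tested genes.

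The largest change was that of psmb5, the chymotrypsin-like site (ENSDARG00000075445, chromosome 2, 38373272 to 38392575, plus strand). It read 50.6, 47.6 and 49.4 CPM in the uncut libraries and 111, 120 and 117 CPM at 3 h. The lowest 3 h library was far above the highest uncut one, and the log2 change was 1.24 ± 0.18 (adjusted p = 1.2e-05). The caspase-like psmb6 (ENSDARG00000002240, chromosome 23, 44536926 to 44546152, minus strand) went from 34.6, 41.3 and 42.7 CPM to 55.4, 57.1 and 56.9 CPM (log2 0.51 ± 0.18, adjusted p = 0.025). The trypsin-like psmb7 (ENSDARG00000037962, chromosome 21, 8341774 to 8352095, plus strand) went from 59.2, 57.1 and 59.2 CPM to 96.2, 97.6 and 98.5 CPM (log2 0.74 ± 0.18, adjusted p = 0.0023). Neither overlapped between groups.

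In each other class, the gene with the smallest adjusted p changed by a similar amount. In the alpha ring this was psma3 (ENSDARG00000086618, chromosome 17, 11421643 to 11439815, minus strand), which codes for alpha7, at 49.7, 50.9 and 47.4 CPM uncut and 98.9, 101 and 92.3 CPM at 3 h (log2 0.98 ± 0.17, adjusted p = 7.7e-05). Among the other beta genes it was psmb1 (ENSDARG00000009640, chromosome 13, 1142724 to 1151410, minus strand), which codes for beta6, at 56.9, 59.6 and 62.9 CPM uncut and 105, 112 and 106 CPM at 3 h (log2 0.85 ± 0.18, adjusted p = 0.00053). Both estimates lay between those of psmb6 and psmb5, and neither gene overlapped between groups.

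In the regulatory particle, the ATPase psmc6 (ENSDARG00000037038, chromosome 20, 9763364 to 9776334, plus strand) read 42.1, 44.9 and 41.4 CPM uncut and 80.7, 81.3 and 82.7 CPM at 3 h (log2 0.93 ± 0.18, adjusted p = 0.00029). The scaffold subunit psmd1 (ENSDARG00000003189, chromosome 22, 37631034 to 37716627, plus strand), the most counted of the 37, read 105, 103 and 114 CPM uncut and 195, 195 and 199 CPM at 3 h (log2 0.88 ± 0.13, adjusted p = 1.75e-05). Both were higher in every 3 h library than in any uncut one. The chaperone psmd10 read 4.66, 4.78 and 5.72 CPM uncut and 14.4, 10.6 and 9.87 CPM at 3 h, also with no overlap (log2 1.20 ± 0.24, adjusted p = 0.00036). Other regulatory genes past 1 log2 unit were psmd8 (1.06 ± 0.18), the ubiquitin receptor psmd4a (1.05 ± 0.20), psmd11b (1.03 ± 0.22) and psmd7 (1.01 ± 0.22). The deubiquitinase psmd14 was near the lower end at 0.51 ± 0.19.

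The 2 genes without a call were psma6b (log2 0.21 ± 0.20, adjusted p = 0.41) and psmd9 (0.05 ± 0.22, adjusted p = 0.88). psmd9 read 10.8, 10.7 and 8.95 CPM uncut and 12.2, 9.05 and 10.3 CPM at 3 h, so its groups overlapped. psma6a, the other copy of the alpha1 gene psma6b, rose by 0.92 ± 0.23. The number of genes called was 32 or 33 when any 1 of the 6 libraries was left out and 33 to 35 under the other settings tried. Beyond the fits named next, shares of all genes are not given for these settings, so these counts describe the members only. Of all genes, 50.4% were called in the fit on the 6 libraries alone and 48.8% without the libraries that stand apart.

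**Figure D3:**
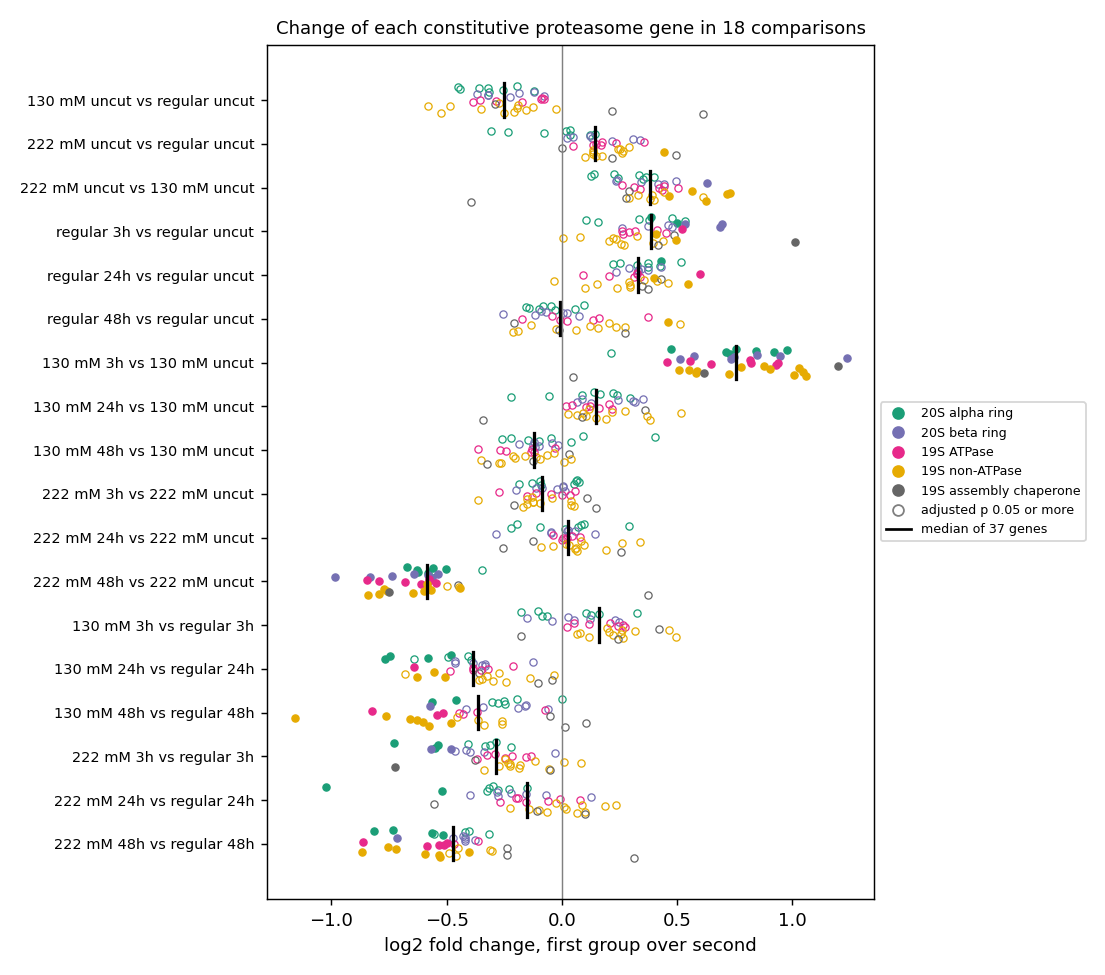
Each point is the log2 fold change of 1 of the 37 genes in 1 of 18 comparisons of 2 groups, filled where the adjusted p was under 0.05, coloured by role, with the median as a black bar. All points of 130 mM at 3 h against uncut lie above 0, and those of 222 mM at 48 h, against uncut and against regular medium, lie below 0 but for psmd9.

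Other genes of the ubiquitin and proteasome system were called too, where 38.2% of all tested genes changed, 20.9% rose and 17.3% fell. Several of the list counts below are near the share of all genes that changed. Of 12 other 26S subunits, deubiquitinases and shuttles tested, 5 rose and 0 fell, among them the proteasome-bound deubiquitinases usp14 (log2 1.00 ± 0.19) and uchl5 (1.05 ± 0.19). Of 11 ubiquitin, E1 and p97 genes, 5 rose, including the p97 ATPase vcp (1.13 ± 0.18), its cofactor nsfl1c (1.22 ± 0.20) and the polyubiquitin gene ubb (1.01 ± 0.18), and 1 fell, the p97 adaptor ubxn7 (-1.01). Of 6 activators and inhibitors, psme1 (0.68), psme2 (0.54) and psme3 (1.30 ± 0.21) rose, whereas psme4a, a copy of the PA200 activator gene, fell by 1.69 on the log2 scale, from 199 to 61.5 CPM. The core maturation factor pomp rose by 0.89 ± 0.21 and the alpha-ring chaperone psmg2 fell by 0.37 on the log2 scale, the only calls among 5 assembly chaperones outside the rule. Of 10 transcription factor genes of this system, nfe2l2b (1.53 ± 0.30), nfe2l2a (0.45) and keap1a (0.60) rose, and nfe2l1a, a zebrafish NRF1 gene, read -0.10 ± 0.22 (adjusted p = 0.74). The other NRF1 copy, nfe2l1b, was tested too, and its values are not given here, so this value does not describe NRF1 as a whole. The inducible psmb8a read 2.09 ± 0.079 FPKM (SD, n = 3) uncut and 1.48 ± 0.91 FPKM at 3 h.

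Markers of other cell states differed in the same comparison, where 38.2% of all tested genes changed, 20.9% rose and 17.3% fell. The 5 proliferation markers all rose, and their summed level went from 136 to 145 CPM in the uncut libraries to 298 to 451 CPM at 3 h. In this and later marker counts, the neutrophil list holds mmp13a as 2 gene entries, and alas2 was the only erythrocyte marker tested. Of the tissue markers, 3 of 4 liver, 3 of 3 enterocyte, 2 of 4 neutrophil and 1 of 1 erythrocyte genes rose, 2 of 3 photoreceptor, 2 of 3 neuron and 1 of 4 epidermis genes fell, and the skeletal muscle, macrophage, exocrine pancreas and lens lists held no call. Their part in the result was not tested.

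Later in 130 mM glucose no member was called against uncut larvae. At 24 h, 0 of 37 genes were called by edgeR (4 at an unadjusted p under 0.05) and 0 by DESeq2 (2 unadjusted), where 2.67% of all genes changed, and the median was 0.15. At 48 h, 0 of 37 were called by either tool (3 unadjusted by each), where 6.14% of all genes changed, and the median was -0.12. psmb5 read 62.5, 64.7 and 56.4 CPM at 24 h, each still above the 3 uncut libraries, and 43.2, 45.1 and 47 CPM at 48 h, each below them. Fitted on the 6 libraries alone, 10 genes were called at 48 h, 9 lower and 1 higher, where 33.1% of all genes were.

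In regular medium the same direction was seen at 3 h with fewer calls. All 37 estimates were above 0 with a median of 0.39, and 9 genes rose, where 15.1% of all genes changed and 8.04% rose. These were psma1, psma8, psmb1, psmb2, psmb5, psmc1a, psmd1, psmd3 and psmd5. The largest change was that of psmd5, an assembly chaperone of the ATPase base, from 10.3 to 20.9 CPM (log2 1.01 ± 0.18, adjusted p = 0.00043). psmb5 read 67.5, 65.4 and 51.4 CPM uncut and 121, 89.3 and 86.9 CPM at 3 h (log2 0.69 ± 0.18, adjusted p = 0.0085), and the 2 groups did not overlap.

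Replicate 1 of the 3 h group, one of the libraries standing apart, was the highest for psmb5, and without it 2 genes were called, where 13.9% of all genes changed, and the median was 0.25. The fit on the 6 libraries alone called 0, where 0.0149% of all genes were called. The proliferation markers moved here too, with 4 of 5 higher and summed levels of 89.3 to 242 CPM uncut and 283 to 508 CPM at 3 h. Of the other markers, 3 of 3 neuron, 2 of 3 lens and 1 of 3 photoreceptor genes were lower, skeletal muscle had 1 higher and 2 lower of 7, and 1 of 4 neutrophil, 1 of 4 epidermis and 1 of 1 erythrocyte genes were higher. With all libraries in the fit, 8.04% of all genes were higher and 7.06% lower in this comparison. The part of the markers in this result, too, was not tested.

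At 24 h in regular medium, psma1 (0.43), psmc1b (0.60), psmd1 (0.40) and psmd3 (0.55) rose. This share, 4 of 37, is near the 9.78% of all genes that changed. The median was 0.33, and for 30 genes every 24 h library was above every uncut library, where this held for 15.7% of all genes. The call count changed when single libraries were left out: 0 genes were called without replicate 1 or 2 of the uncut group or without replicate 1 of the 24 h group. Shares of all genes are not given for those fits, so these counts describe the members only. Without the 4 libraries that stand apart the call count was 17, all higher, where 27.0% of all genes changed. At 48 h, 1 gene of 37 rose, psmd1 (125, 112 and 150 CPM uncut; 179, 156 and 198 CPM at 48 h; log2 0.46 ± 0.13, adjusted p = 0.016), where 14.5% of all genes changed, and the median was -0.01.

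In 222 mM glucose the early rise was not called. At 3 h and at 24 h, 0 of 37 genes were called by edgeR or by DESeq2, and 0 at an unadjusted p under 0.05 by either, where 0.895% and 4.6% of all genes changed. The medians were -0.08 and 0.03. The uncut group spread widely, since psmb5 read 61.6, 57.7 and 109 CPM uncut, 64.5, 60.7 and 99.8 CPM at 3 h and 63.7, 80.3 and 77.0 CPM at 24 h. Replicate 3 was the highest of its group both in uncut larvae and at 3 h. Without replicate 3 of the uncut group, 3 genes rose at 3 h (median 0.32) and 11 at 24 h (median 0.40), where 6.03% and 8.25% of all genes changed. The 3 h share, 3 of 37, is near that of all genes. That fit kept replicate 3 of the 3 h group, which summed to 2726 CPM over the 37 genes. Replicates 1 and 2 summed to 1895 and 1933 CPM at 3 h and to 1922 and 1700 CPM uncut. Leaving out 1 other library took the 3 h median as low as -0.24.

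At 48 h in 222 mM glucose the members were lower than in uncut larvae. With all libraries in the fit, 31 of 37 genes fell and 0 rose, where 17.2% of all genes changed and 8.74% fell, and the median was -0.59. All 7 beta-ring genes and 7 ATPases fell, with 10 of 12 non-ATPase subunits, 6 of 8 alpha-ring genes and 1 of 3 chaperones. psmb5 went to 36.4, 41.0 and 37.9 CPM, below each uncut library (log2 -0.99 ± 0.18, adjusted p = 0.00027). This count also turned on replicate 3 of the uncut group: without it 6 genes fell and 1 rose, where 14.4% of all genes changed, and the median was -0.24. Fitted on the 6 libraries alone, 5 of 37 fell, a share near the 12.5% of all genes that changed in that fit. The genes not called with all libraries were psma4, psma6a, psmd10, psmd11a, psmd11b and psmd9, the last of which read 0.37 ± 0.22. Of the markers in the same comparison, 4 of 7 skeletal muscle, 1 of 3 lens, 1 of 3 neuron and 1 of 3 photoreceptor genes rose. There, 3 of 4 exocrine pancreas, 2 of 4 neutrophil, 1 of 4 liver, 1 of 4 epidermis and 1 of 1 erythrocyte genes fell, and the part of these markers in the result was not tested. Of 11 ubiquitin, E1 and p97 genes, 8 fell, among them ubb (-1.04 ± 0.18), ubc (-0.87 ± 0.15) and nsfl1c (-0.83 ± 0.20).

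At 48 h in 222 mM glucose, 4 of 5 inducible beta genes rose against the same uncut larvae, where 8.41% of all genes rose. These were psmb8a (log2 1.56), psmb9a (1.73), psmb12 (1.51) and psmb13a (2.16). The 5 genes summed to 7.51 to 12.3 CPM in 222 mM uncut larvae and 15.2 to 22.9 CPM at 48 h. In regular medium they summed to 12.2 to 19.9 CPM uncut and 24.7 to 30.1 CPM at 48 h, so the 222 mM level at 48 h stayed below that of regular medium. By length-corrected level psmb8a averaged 1.91 FPKM there against 25.0 FPKM for psmb5. Across the 12 groups, psmb8a ran from 0.60 to 4.96 FPKM and psmb5 from 25.0 to 73.8 FPKM, and the highest group was 24 h in regular medium for psmb8a and 3 h in 130 mM glucose for psmb5. The lowest psmb8a group, at 0.60 FPKM, was 222 mM uncut, so its rise there started from a level under 1 FPKM. No fit without replicate 3 of 222 mM uncut is given for the inducible genes.

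**Figure D4:**
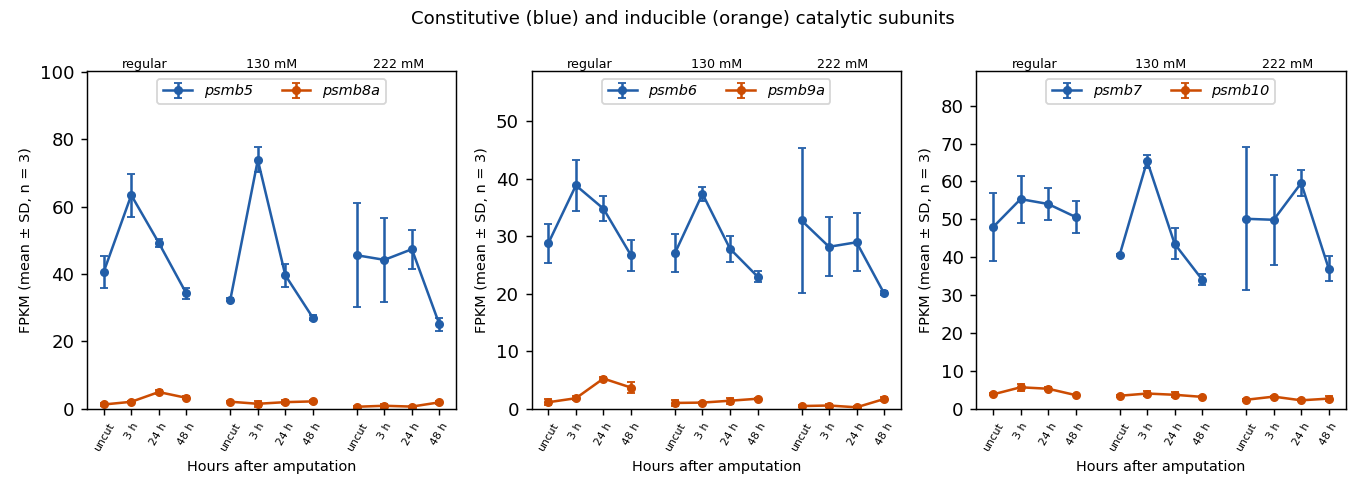
Mean FPKM with SD (n = 3) of the 3 constitutive active subunits (blue) and of their inducible counterparts (orange), by hours after amputation in each medium. psmb5, psmb6 and psmb7 are at or near their highest at 3 h in 130 mM glucose, while psmb8a and psmb9a are highest at 24 h in regular medium and stay far below the constitutive genes.

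In uncut larvae, few members differed by test between glucose and regular medium. In 130 mM glucose 35 of 37 estimates were below 0 (median -0.25), and for 22 genes every glucose library was below every regular one, where this held for 9.17% of all genes. None of these passed the adjusted threshold: 0 were called by edgeR (10 unadjusted) and 0 by DESeq2 (6 unadjusted), where 2.63% of all genes changed. Without the 4 libraries that stand apart, 11 were lower and 1 was higher, where 28.8% of all genes changed. psmd9 read higher in 130 mM glucose, at 6.06, 6.67 and 7.23 CPM in regular medium and 10.8, 10.7 and 8.95 CPM in 130 mM glucose (log2 0.61 ± 0.22, adjusted p = 0.13).

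In 222 mM uncut larvae, 1 of 37 genes, psmd3, was higher than in regular medium (0.44 ± 0.14, adjusted p = 0.032), where 12.6% of all genes changed. The median of 0.15 became -0.24 without replicate 3 of the 222 mM group, with 4 genes lower and 0 higher, a share near the 10.7% of all genes that changed in that setting. Against 130 mM uncut larvae, psmb5, psmd1, psmd3, psmd8, psmd11b and psmd12 were higher, 6 of 37 where 7.63% of all genes changed. Without the same replicate this count was 2, 1 in each direction, where 4.5% of all genes changed, and the median went from 0.38 to 0.01.

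The glucose media were also compared with regular medium at the same hour after amputation. At 3 h in 130 mM glucose, 0 of 37 differed by edgeR (2 unadjusted) or by DESeq2 (2 unadjusted), where 9.50% of all genes changed, and the median was 0.16. Without the libraries that stand apart 14 genes were higher there, where 31.8% of all genes changed. At 3 h in 222 mM glucose 6 were lower, namely psma2, psma4, psma8, psmb1, psmb2 and psmd5, where 23.9% of all genes changed and 12.9% were lower, and the median was -0.29. The count of 6 of 37 is near the share of all genes that were lower. Without replicate 3 of the 222 mM 3 h group this count was 18, where 26.4% of all genes changed, and fitted on the 6 libraries alone it was 0, where 3.66% did.

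At 24 h in 130 mM glucose all 37 estimates were below regular medium (median -0.38), and 8 genes were lower, where 7.03% of all genes changed and 4.69% were lower. These were psma1, psma2, psma5, psma6b, psmc1b, psmd1, psmd3 and psmd14, and for 30 members the groups did not overlap, where 16.9% of all genes were lower without overlap. psmd1 read 196, 156 and 160 CPM in regular medium and 103, 117 and 129 CPM in glucose (log2 -0.56 ± 0.13, adjusted p = 0.0081). Leaving out the first regular replicate at 24 h gave no call, where 3.12% of all genes changed, and 21 were called, all lower, without the libraries that stand apart, where 11.1% did. At 24 h in 222 mM glucose, psma2 (-1.02 ± 0.19) and psma6b (-0.52 ± 0.20) were lower, 2 of 37 where 34.1% of all genes changed, and the median was -0.15.

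At 48 h more members were lower in glucose than in regular medium. In 130 mM glucose 13 of 37 genes were lower and 0 higher, where 19.9% of all genes changed and 10.9% were lower, with a median of -0.36. In 222 mM glucose 17 were lower and 0 higher, where 16.5% of all genes changed and 9.48% were lower, with a median of -0.47. Groups did not overlap, with glucose lower, for 30 members in 130 mM and 34 in 222 mM, where 28.5% and 26.4% of all genes were lower without overlap. Both comparisons share the 3 regular libraries, so they are not independent.

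The regulatory particle held the largest of these differences. The lid subunit psmd11b (ENSDARG00000005134, chromosome 12, 28346722 to 28363166, minus strand) read 53.4, 46.6 and 57.1 CPM in regular medium, 23.8, 22.2 and 24.4 CPM in 130 mM glucose and 31.2, 34.5 and 29.9 CPM in 222 mM glucose. All 6 glucose libraries were below all 3 regular ones, and the log2 differences were -1.16 ± 0.22 (adjusted p = 0.00054) and -0.72 ± 0.22 (adjusted p = 0.024). psmd1 read 109, 106 and 99.2 CPM in 130 mM and 101, 109 and 107 CPM in 222 mM glucose, against 156 to 198 CPM in regular medium (-0.76 ± 0.13, adjusted p = 0.00013; -0.75 ± 0.13, adjusted p = 0.00016).

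The lid deubiquitinase psmd14 (ENSDARG00000063100, chromosome 11, 10832560 to 10850936, minus strand) had the lowest estimate in 222 mM glucose. It read 61.7, 56.7 and 66.0 CPM in regular medium, 36.7, 41.5 and 40.9 CPM in 130 mM and 32.1, 37 and 31.9 CPM in 222 mM glucose, with no overlap. The log2 differences were -0.63 ± 0.19 (adjusted p = 0.020) and -0.87 ± 0.19 (adjusted p = 0.0022). By class, 7 of 12 non-ATPase genes were lower in each glucose medium, 3 and 5 of 7 ATPases, 2 and 4 of 8 alpha genes, and 1 and 1 of 7 beta genes (psmb3 in 130 mM, psmb4 in 222 mM). The active subunits were not called: psmb5 read 52.2, 49.1 and 52.9 CPM in regular medium, 45.1 ± 1.89 CPM (SD, n = 3) in 130 mM and 38.4 ± 2.36 CPM in 222 mM glucose (-0.19 ± 0.18 and -0.42 ± 0.18).

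The 48 h counts depended on which libraries set the spread. When any 1 of the 6 libraries was left out, 3 to 9 genes were called in 130 mM and 6 to 12 in 222 mM glucose. Shares of all genes are not given for those fits, so these ranges describe the member counts only. Fitted on the 6 libraries alone, 29 were lower in 130 mM, where 46.0% of all genes changed, and 34 were lower and 1 higher in 222 mM, where 41.2% changed.

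Some other genes of the system also differed at 48 h, where 19.9% and 16.5% of all genes changed in 130 and 222 mM glucose. Of all genes, 10.9% and 9.48% were lower and 8.98% and 7.05% were higher. In 130 and 222 mM glucose, 2 and 3 of 12 other 26S, deubiquitinase and shuttle genes and 3 and 4 of 11 ubiquitin, E1 and p97 genes were lower. In the other direction, the ubiquitin fusion gene rps27a (log2 0.47) and the assembly chaperone psmg4 (0.54) were higher in 130 mM glucose and the shuttle ubqln4 (0.44) in 222 mM glucose. Of 10 transcription factor genes, 3 and 2 were lower and 1 was higher in each. In 130 and 222 mM glucose nfe2l1a, a copy of the NRF1 gene, was lower by log2 -1.57 ± 0.22 and -1.42 ± 0.22. Its level was 97.8 CPM in regular medium and 32.9 and 36.6 CPM in glucose. The other copy, nfe2l1b, was tested too, and its values are not given here, so these values do not describe NRF1 as a whole. The polyubiquitin gene ubb differed by -1.02 ± 0.18 and -1.44 ± 0.19, the shuttle rad23ab by -1.11 and -0.84, the proteasome-bound thioredoxin txnl1 by -1.30 and -1.16, and the p97 partners nploc4 and ufd1l were lower too. Among the muscle atrophy ligases, fbxo32 (-2.40 and -2.33), trim63a (-2.69 and -2.74) and fbxo30a (-2.38 and -2.19) were lower in both, 3 and 4 of 5 genes. psme4a was lower by -2.20 and -2.51. nfe2l2b, an NRF2 gene, was higher in both (0.91 and 1.11). The inducible psmb8a read 3.25 ± 0.44 FPKM (SD, n = 3) in regular medium, 2.19 ± 0.35 FPKM in 130 mM and 1.91 ± 0.49 FPKM in 222 mM glucose.

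Tissue markers differed beside these 48 h results as well, where 19.9% and 16.5% of all genes changed in 130 and 222 mM glucose. In 130 mM glucose 3 of 4 liver, 4 of 4 exocrine pancreas, 3 of 4 epidermis, 1 of 3 enterocyte, 1 of 3 photoreceptor, 1 of 4 neutrophil and 1 of 1 erythrocyte markers were higher, and 2 of 7 skeletal muscle and 1 of 3 neuron markers lower. In 222 mM glucose 3 of 4 liver, 4 of 4 exocrine pancreas and 1 of 1 erythrocyte markers were higher, 3 of 7 skeletal muscle markers were lower and 1 higher, and 3 of 5 proliferation, 1 of 4 epidermis and 1 of 4 macrophage markers were lower. The summed muscle markers were at 56157 to 63753.5 CPM in regular medium, 51458 to 54833 CPM in 130 mM and 50836 to 56490 CPM in 222 mM glucose. Their part in the result was not tested.

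Whether a glucose medium altered the response to amputation was tested on the differences themselves, over the 3 times at once. In 130 mM glucose the response of 5 of 37 genes differed from regular medium, psmd1, psmd11b, psmd12, psmc1b and psma3, where that of 17.9% of all genes did. With all libraries in the fit, the share of members, 5 of 37, is near that background. Some other settings, given at the end, called a larger share of members than of all genes in 130 mM glucose. At single times, psmd12 at 3 h was the 1 gene called (difference 0.90 ± 0.27, adjusted p = 0.041), where 6.86% of all genes were, although 35 of 37 differences at 3 h were above 0 (median 0.38). For the other members, the difference between the 3 h responses in 130 mM and in regular medium was not called.

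In 222 mM glucose the response of 6 of 37 genes differed, psmd1, psmd3, psmd5, psmd14, psmc1b and psma1, where that of 15.3% of all genes did, so this share is near the background too. At 48 h, 6 differences were called, all lower, where 5.57% of all genes differed: psmc1b (-1.22 ± 0.25), psmd1 (-1.05 ± 0.18), psmd14 (adjusted p = 0.025), psmd3 (-0.85 ± 0.20), psma1 (-0.77 ± 0.18) and psmd4b (-0.73 ± 0.22). At 3 h, 1 was called, psmd5 (-1.22 ± 0.25), where 2.97% of all genes differed. For 36 of 37 genes the 48 h difference was below 0, with a median of -0.64. These differences include the 222 mM uncut group, whose replicate 3 stood apart and was high. Without that library, the median change at 48 h in 222 mM glucose against uncut larvae was -0.24 instead of -0.59. The size of the median 48 h difference over the 37 genes therefore depends in large part on 1 library. The called genes were not alike in this. In the 222 mM uncut libraries psmd1 read 161, 141 and 173 CPM, whereas psmd14 read 45.4, 39.0 and 87.9 CPM. psmd1 had the smallest adjusted p in both media (0.0031 and 0.0019).

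psmd1 shows the difference in its levels. In regular medium it stayed at 145 to 199 CPM in all 9 amputated libraries, above 112 to 150 CPM uncut but for 1 library. In 130 mM glucose it went from 103 to 114 CPM uncut to 195 to 199 CPM at 3 h and back to 99.2 to 109 CPM at 48 h. In 222 mM glucose it went from 141 to 173 CPM uncut to 101 to 109 CPM at 48 h.

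Several members departed from the rest. The alpha2 gene psma2 (ENSDARG00000040121, chromosome 16, 43335696 to 43344859, minus strand) was lower in 222 mM glucose than in regular medium at 3, 24 and 48 h (-0.73 ± 0.19, -1.02 ± 0.19 and -0.82 ± 0.19; adjusted p = 0.0057, 0.00011 and 0.0031). At 24 h it read 44.4, 40.3 and 38.5 CPM in regular medium and 15.0, 23.0 and 22.5 CPM in 222 mM glucose, with no overlap. The chaperone psmd9 (ENSDARG00000006300, chromosome 7, 72003301 to 72011167, plus strand) was called in none of the 18 comparisons; it was the 1 member above 0 at 48 h in 222 mM glucose against uncut and against regular medium, at 10.1, 9.63 and 10.3 CPM. Both psma6 copies were low in replicate 3 at 24 h in 130 mM glucose (16.9 CPM for psma6a and 26.7 CPM for psma6b, against 26.5 CPM or more and 40.5 CPM or more in its other replicates).

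The paralogue pairs differed in balance. The ratio of psma6a to psma6b in CPM was 0.632 ± 0.078 (SD, n = 3) uncut and 0.807 ± 0.051 at 3 h in regular medium. It was 0.572 ± 0.074 and 0.927 ± 0.063 in 130 mM glucose, and 0.612 ± 0.098 and 0.750 ± 0.013 in 222 mM glucose. Uncut and 3 h libraries did not overlap in any medium. The ratio of psmc1a to psmc1b at 48 h was 0.646 ± 0.043 in regular medium, 1.08 ± 0.08 in 130 mM and 0.914 ± 0.088 in 222 mM glucose, but in uncut larvae in regular medium it already ran from 0.614 to 1.08. The ratio of psmd11a to psmd11b at 48 h was 0.685 ± 0.063 in regular medium, 1.12 ± 0.022 in 130 mM and 0.830 ± 0.066 in 222 mM glucose. In uncut larvae this ratio was 0.851 ± 0.057, 1.06 ± 0.187 and 0.870 ± 0.049 in the same order. In 130 mM glucose the uncut range of 0.852 to 1.22 overlapped the 48 h range of 1.09 to 1.14. The ratio of psmd4a to psmd4b ran from a group mean of 0.582 ± 0.058 in uncut larvae in 130 mM glucose to 0.814 ± 0.081 at 48 h in 222 mM glucose. No test was run on ratios, and reads shared between copies could move them, since no source used here names the counting tool or its strand setting.

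Among tested genes outside the rule, those whose log2 level followed the mean of the standardised members most closely over the 36 libraries were nsfl1c (Pearson's r = 0.95), selenot2 (0.91), usp5 (0.90), si:rp71-45k5 (0.89), usp14 (0.89), vcp (0.88), adrm1 (0.88), prpf4 (0.88), ppp6c (0.87) and sem1 (0.86). The p97 genes nsfl1c and vcp, the deubiquitinases usp5 and usp14, and adrm1 and sem1, which code for 26S subunits outside the naming rule, make up 6 of these 10. The gene si:rp71-45k5 (ENSDARG00000035679) carries the symbol PSMA2 in the name table used here, and sharing of reads with psma2 was not tested. These values are descriptions over libraries that all genes share.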

How the data were processed

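Total RNA of 36 whole-larva samples was sequenced as paired ends. The table deposited by the authors holds read counts per gene and FPKM per gene and library. HISAT, StringTie, edgeR and GRCz11 are named in the submitters' processing notes, and FPKM (normalised for transcript length and mapped fragments) was made by the authors with StringTie and edgeR, per the labels' design text. Neither the counting tool nor the strand setting is given in these sources.

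A gene entered the tests when 3 or more libraries reached 1 FPKM, which 20120 genes did. Counts were fitted with edgeR 4.0.16 (R 4.3.3, limma 3.58.1) by the quasi-likelihood test on 12 groups after TMM scaling (common biological coefficient of variation 0.203, median prior degrees of freedom 6.93), with Benjamini-Hochberg adjustment over all tested genes. CPM values are TMM-scaled, and correlations used log2 CPM with a prior count of 2. Standard errors come from dividing each log2 change by the root of its F value. Differences in response were F tests over the 3 times. Tables were handled with Python 3.11.15, pandas 2.3.3 and matplotlib 3.10.9, and the scripts were tested on simulated data. The lowest count of any member in a library was 217.

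Values in every library are given for psmb5, psmb6 and psmb7, for the alpha, other beta, ATPase and non-ATPase member with the smallest adjusted p in the comparison with most members called, and for members chosen after their values were seen (psmd9, psmd10, psmd11b, psmd14, psma2). The members and lists were chosen with earlier results of these data known. Alternatives were DESeq2 1.42.0, median-ratio scaling, no expression filter, a fit on the compared libraries alone, a replicate block, leaving out each library, and leaving out the 4 libraries that stand apart. Replicate numbers were checked for pairing: deviations of same-numbered libraries correlated above 0.1 in every pair only between 222 mM uncut and 3 h (0.174, 0.152 and 0.389), where the hint comes from the data and the labels name no pairing.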

Additional observations from a re-analysis of the deposited data

Results flagged for a closer look

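The response to amputation of 5 of 37 genes in 130 mM glucose and of 6 of 37 in 222 mM glucose differed from that in regular medium, by the F test over the differences at 3, 24 and 48 h. They are listed here because the difference between media was itself tested. Among all tested genes 17.9% and 15.3% differed in the same tests, so neither count stands above the background with all libraries fitted. In 130 mM glucose, the fit on the compared libraries alone called a larger share of members than of all genes. So did the fit without the libraries that stand apart. In 222 mM glucose neither of these fits did, and the counts are given below. With all libraries fitted, psmd1 and psmc1b were in both sets, and both tests share the regular libraries.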

How the results depend on the processing

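No called change of a single member reversed its direction under any setting tried. Medians over the members did change sign: without replicate 3 of 222 mM uncut, that of 222 mM at 3 h against uncut went from -0.08 to 0.32 and that of 222 mM against regular uncut from 0.15 to -0.24. The high replicate 3 of the 222 mM 3 h group was kept in that fit. Counts in this paragraph and the next are members called of 37, each with the share of all genes called in the same setting. With DESeq2, they were 2 (14.7%) in 222 mM against regular uncut and 8 (25.0%) for the response in 130 mM glucose. With no expression filter, 6 (11.8%) were called at 48 h in 130 mM and 1 (22.5%) at 24 h in 222 mM against regular medium. Fitted on the compared libraries alone, the count was 0 (0.109%) in 222 mM against regular uncut and 0 (0.0149%), 0 (1.76%) and 0 (3.20%) at 3, 24 and 48 h in regular medium. It was 1 (3.64%) between the uncut glucose groups, 1 (3.74%) and 10 (33.1%) at 24 and 48 h in 130 mM and 5 (12.5%) at 48 h in 222 mM against uncut. Against regular medium it was 13 (6.45%) and 29 (46.0%) at 24 and 48 h in 130 mM, and 0 (3.66%), 7 (41.9%) and 35 (41.2%) at 3, 24 and 48 h in 222 mM. The response differed for 24 (20.6%) in 130 mM and 2 (7.35%) in 222 mM. The cause was not tested.

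The setting without the 4 libraries that stand apart was chosen after seeing the data. It gave 12 (28.8%) in 130 mM and 10 (29.1%) in 222 mM against regular uncut, 2 (13.5%) between the uncut glucose groups, and 17 (27.0%) and 7 (37.7%) at 24 and 48 h in regular medium. Against uncut it gave 5 (18.6%) and 3 (20.6%) at 24 and 48 h in 130 mM, and 13 (17.9%), 23 (18%) and 12 (24.7%) at 3, 24 and 48 h in 222 mM. This setting kept the high replicate 3 of the 222 mM 3 h group. Against regular medium it gave 14 (31.8%), 21 (11.1%) and 22 (34.2%) in 130 mM, and 9 (46.4%) and 32 (29.3%) at 24 and 48 h in 222 mM. The response differed for 31 (55.6%) in 130 mM and 14 (43.4%) in 222 mM. Several counts in this paragraph are below the share of all genes in the same fit. These include 7 at 48 h in regular medium and 14 for the response in 222 mM glucose. Another is 9 at 24 h in 222 mM against regular medium.

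Leaving out 1 library at a time gave 0 to 2 calls for 130 mM and 0 to 4 for 222 mM against regular uncut, and 1 to 22 between the uncut glucose groups. Against uncut larvae it gave 2 to 10, 0 to 5 and 0 to 3 at 3, 24 and 48 h in regular medium, 32 to 33 at 3 h in 130 mM, and 0 to 3, 0 to 11 and 7 to 34 at 3, 24 and 48 h in 222 mM. Against regular medium it gave 0 to 2, 0 to 6 and 3 to 9 in 130 mM, and 3 to 18, 1 to 2 and 6 to 12 in 222 mM. Differences in response ranged from 2 to 12 and from 4 to 20. Shares of all genes are not given beside these ranges, which describe the member counts only.

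With a replicate block, 27 members were called at 48 h in 222 mM against uncut and 12 against regular medium, and no count of calls moved by over 1.5 times. The shares of all genes with the block are not given here. Under median-ratio scaling the median of all genes moved by at most 0.0226 (log2). With 3 libraries a group, a difference that misses the threshold is not shown to be absent.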
